A study of Homo sapiens with 10 samples.

Results

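The levels of 8 genes were followed across all 10 libraries of the study: TXNIP, ARRDC1, ARRDC2, ARRDC3 and ARRDC4, which encode alpha-arrestins, and MLXIP, MLXIPL and MLX, which encode the transcription factors of the glucose-sensing Mondo family and their partner. They were taken by symbol from the deposited table, where all 8 of the 8 were found among 58216 gene identifiers, and all 8 passed the filter on low counts. The 8 genes were chosen by the low read counts of TXNIP and ARRDC4 in MN1 cells against control, so that comparison is given here as a description with no test. RNA was measured by bulk sequencing in TREx293 cells, a human embryonic kidney line with a tetracycline repressor and a recombination site. The 5 groups, of 2 libraries each, were CTRL (genotype given as WT) and lines with a knockin of MN1, BEND2, MN1-BEND2 or MN1-CXXC5, in which 3×HA-tagged cDNAs were induced with doxycycline. MN1-BEND2 and MN1-CXXC5 are the fusions that the study ties to astroblastoma, a brain tumour, while the host cells are of kidney origin. The labels do not say whether CTRL carried an empty construct or received doxycycline, whether a line was 1 clone, or whether cultures were separate for the 2 libraries in each group. The p-values therefore measure the spread between these libraries, which may be technical.

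Alpha-arrestins share the arrestin fold and carry short proline-rich motifs through which they bring NEDD4-family ubiquitin ligases to membrane proteins. TXNIP binds thioredoxin and promotes the removal of the glucose transporter GLUT1 from the cell surface, and ARRDC4 is its closest relative and also restrains glucose uptake. MondoA, the product of MLXIP, pairs with MLX, responds to glucose 6-phosphate and activates TXNIP and ARRDC4 through carbohydrate response elements, which are spaced E-box-like sequences. ChREBP, the product of MLXIPL, is the related factor best known from liver and fat.

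The promoters of the members in which E-box-like letters were found are shown, because TXNIP and ARRDC4 are textbook genes of such elements. Windows from 250 bases before to 50 bases after each start site (RefSeq, GRCh38.p14) were searched on both strands for CACGTG, for CACGAG, and for CACGNG and CNCGNG with 5 bases between them. All 8 genes matched the RefSeq table. The stretches below run from position -250 to -41 and read 5′ to 3′ on the gene's strand, with the matches in capitals. They lie at chr1:145996620-145996829 (minus strand) for TXNIP, chr15:97960453-97960662 (plus) for ARRDC4 and chr17:42566850-42567059 (plus) for MLX.
TXNIP: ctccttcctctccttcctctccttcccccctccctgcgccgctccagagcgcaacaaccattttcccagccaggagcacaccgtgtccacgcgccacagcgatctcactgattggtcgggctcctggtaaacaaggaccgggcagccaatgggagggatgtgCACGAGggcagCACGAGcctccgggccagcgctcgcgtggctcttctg
ARRDC4: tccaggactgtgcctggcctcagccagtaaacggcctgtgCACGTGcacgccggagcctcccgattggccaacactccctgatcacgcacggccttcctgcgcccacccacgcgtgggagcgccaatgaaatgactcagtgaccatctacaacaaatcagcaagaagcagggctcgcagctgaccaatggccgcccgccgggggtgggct
MLX: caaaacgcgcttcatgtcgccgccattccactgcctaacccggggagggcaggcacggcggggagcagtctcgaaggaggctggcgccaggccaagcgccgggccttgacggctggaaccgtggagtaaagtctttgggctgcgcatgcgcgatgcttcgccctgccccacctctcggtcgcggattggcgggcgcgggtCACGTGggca
TXNIP held CACGAG at -88 and at -77, and these 2 copies form the spaced pair. The pair was found in 176 of 35116 windows, or 0.501%, and CACGAG in 6.78%. ARRDC4 held CACGTG at -210 and MLX held it at -50, and 7.26% of all windows hold that hexamer. No match was found in the windows of the other 5 genes or in the second TXNIP window. A match describes the letters only, and no factor binding was measured.

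TXNIP (chromosome 1, 145992435 to 145996600, minus strand) was highest in control cells and lowest in MN1 cells. Its level, in CPM (counts scaled to the library's total, with the totals adjusted by TMM factors), was 112 and 112 CPM in the 2 CTRL libraries. BEND2 cells had 72.9 and 72.4 CPM. MN1-BEND2 cells had 34.1 and 35.4, MN1-CXXC5 cells 35.1 and 35.1, and MN1 cells 21.2 and 20.3. The order from low to high was therefore MN1, then both fusions together, then BEND2, then CTRL, and only the 2 fusions overlapped. The group means were 18.6% of the control mean in MN1 cells, 31.1% in MN1-BEND2 cells, 31.4% in MN1-CXXC5 cells and 65% in BEND2 cells.

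ARRDC4 (chromosome 15, 97960698 to 97973838, plus strand) followed nearly the same order from a higher level. Its CTRL libraries had 333 and 326 CPM, and BEND2 cells had 225 and 223. MN1-CXXC5 cells had 141 and 139 CPM, MN1-BEND2 cells 105 and 104, and MN1 cells 66.3 and 63.9. No neighbouring groups overlapped, and here the MN1-BEND2 libraries lay below those of MN1-CXXC5. Per kilobase of exon, ARRDC4 was the most abundant of the 8 genes in every group except MN1, with a mean of 80.9 CPM per kb in control against 30.8 for TXNIP and 13.4 for MLX. In MN1 cells its mean of 16 CPM per kb was below the 21.4 of MLX. The ratio of ARRDC4 to TXNIP per kilobase was 2.6 to 2.79 in the 8 libraries of CTRL, MN1, BEND2 and MN1-BEND2, and 3.58 and 3.54 in the MN1-CXXC5 libraries.

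**Figure D1:**
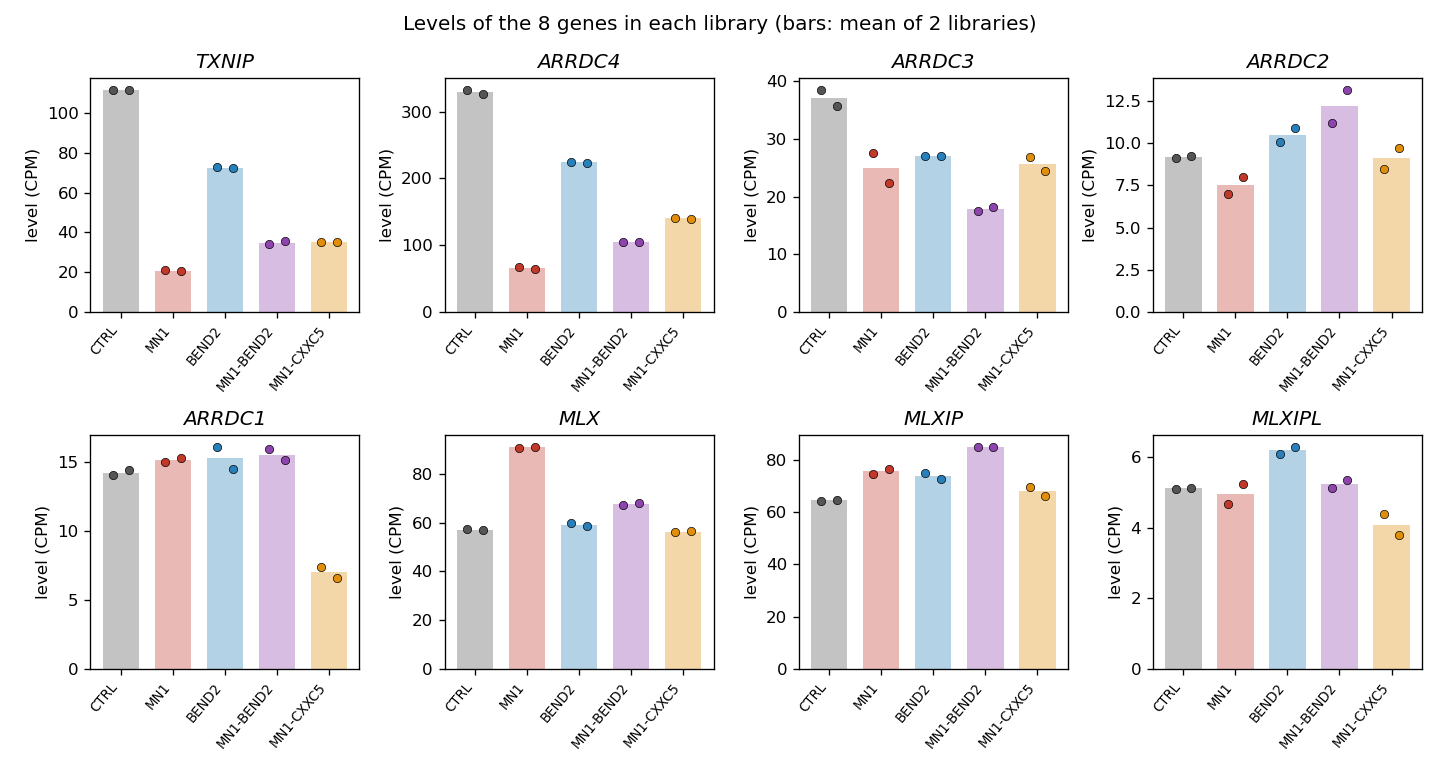
Level of each gene in CPM (vertical axes, each starting at 0) for the 5 groups; points are single libraries and bars the mean of 2. TXNIP and ARRDC4 go down from CTRL through BEND2 and the fusions to MN1, MLX is highest in MN1 cells (90.8 and 91.4) and ARRDC1 is lowest in MN1-CXXC5 cells (7.4 and 6.59).

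Differences were tested in one fit over all genes (the quasi-likelihood F-test of edgeR, with p-values adjusted by Benjamini-Hochberg and calls made at an adjusted p under 0.05). The comparisons against CTRL or MN1 share libraries with the contrast that put TXNIP and ARRDC4 forward. The 3 comparisons among BEND2, MN1-BEND2 and MN1-CXXC5 cells compare none of those libraries. Their spread was still estimated from all 10 libraries, and the genes were chosen with earlier results of these data known. Both fusions also hold MN1 sequence. The p-values of these 3 comparisons are therefore not independent of the choice. In MN1-BEND2 against BEND2 cells, TXNIP fell to 34.7 from 72.7 CPM (log2 fold change -1.06, SE 0.0384, adjusted p = 1.29e-09). ARRDC4 fell by a similar size in the same comparison (-1.10, SE 0.0319, adjusted p = 3.08e-10). In MN1-CXXC5 against BEND2 cells, TXNIP fell by as much again (-1.05, SE 0.0398, adjusted p = 5.05e-09). ARRDC4 fell there too (-0.67, SE 0.0316, adjusted p = 2.36e-08). Between the fusions, TXNIP differed by -0.01 with an interval of -0.11 to 0.08 (95%, adjusted p = 0.879), while ARRDC4 was lower in MN1-BEND2 cells (-0.43, interval -0.50 to -0.35, adjusted p = 4e-07).

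Against control, TXNIP was lower in all 3 groups, with log2 fold changes of -1.68 in MN1-BEND2 cells (SE 0.037, adjusted p = 2.25e-11), -1.67 in MN1-CXXC5 cells (SE 0.0383, adjusted p = 9.57e-11) and -0.62 in BEND2 cells (SE 0.034, adjusted p = 2.65e-06). ARRDC4 was lower in the same groups, at -1.66, -1.23 and -0.56 (adjusted p = 7.46e-12, 2.2e-10 and 2.65e-06). These 3 comparisons use the same CTRL libraries, which are among those that chose both genes. In MN1 cells the log2 fold changes were -2.43 for TXNIP and -2.34 for ARRDC4, which are the values that chose them. Both genes stood higher in the fusion lines than in MN1 cells. TXNIP differed by 0.75 with MN1-BEND2 and 0.76 with MN1-CXXC5 (adjusted p = 1.15e-07 and 1.43e-07). ARRDC4 differed by 0.68 and 1.11 (adjusted p = 2.01e-08 and 7.06e-10). The MN1 libraries are among those that chose both genes, which favours such differences, so nothing is read from these p-values. MN1 reads, from construct and endogenous gene together, stood at 328 and 325 CPM in the MN1 line, 291 and 291 with MN1-BEND2 and 128 and 128 with MN1-CXXC5. Their part in these differences was not tested.

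ARRDC3, an alpha-arrestin that works on beta-adrenergic receptors and integrin beta-4, was also highest in control cells. It lies on chromosome 5 (91368724 to 91383359, minus strand). The CTRL libraries had 38.6 and 35.8 CPM, BEND2 cells 27 and 27.1, MN1 cells 27.6 and 22.4, MN1-CXXC5 cells 26.9 and 24.5, and MN1-BEND2 cells 17.5 and 18.2. MN1-BEND2 libraries were therefore the lowest, with no overlap, and the MN1, BEND2 and MN1-CXXC5 libraries lay close together between them and control. ARRDC3 fell in MN1-BEND2 against BEND2 cells (-0.60, SE 0.0888, adjusted p = 0.000178) and against MN1-CXXC5 cells (-0.52, SE 0.0919, adjusted p = 0.000369), where GC and length offsets gave -0.29 (adjusted p = 0.0208). Its difference between MN1-CXXC5 and BEND2 cells was -0.07, with an interval of -0.26 to 0.12. Against control it fell, with -1.05 in MN1-BEND2 cells (adjusted p = 7.56e-07), -0.53 in MN1-CXXC5 cells (adjusted p = 0.000292) and -0.46 in BEND2 cells (adjusted p = 0.00389), and the value in MN1 cells was -0.57. ARRDC3 shares 145 exon bases with ARRDC3-AS1 on the other strand, and the strand setting of the counts is not given in the sources used here. ARRDC3-AS1 had means of 5.56 CPM in control, 3.73 in MN1-BEND2, 5.52 in BEND2, 6.41 in MN1-CXXC5 and 5.84 in MN1 cells. It too fell in MN1-BEND2 against BEND2 cells (-0.56, adjusted p = 0.00272), but in BEND2 against control it stood at -0.01 (adjusted p = 0.967), where ARRDC3 fell.

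ARRDC1 recruits TSG101 to the plasma membrane and drives the budding of small vesicles. It (chromosome 9, 137605654 to 137615360, plus strand) stood apart in MN1-CXXC5 cells, with 7.4 and 6.59 CPM (125 and 115 counts). The other 8 libraries had 14 to 16.1 CPM (232 to 439 counts). Every MN1-CXXC5 library was thus below every other library, and the means of CTRL, MN1, BEND2 and MN1-BEND2 cells were 14.2 to 15.5 CPM. ARRDC1 was lower in MN1-CXXC5 than in BEND2 cells (-1.14, SE 0.0936, adjusted p = 1.84e-06), and it was higher in MN1-BEND2 than in MN1-CXXC5 cells by 1.14 (SE 0.0933, adjusted p = 6.24e-07). Against control it fell in MN1-CXXC5 cells (-1.02, adjusted p = 4.95e-06), with 0.12 in MN1-BEND2 and 0.11 in BEND2 cells (adjusted p = 0.237 and 0.414). ARRDC1 exons are 62.8% G and C. With offsets for GC content and exon length the change in MN1-CXXC5 against control was -0.57 (adjusted p = 0.000662), that against BEND2 -0.54 (adjusted p = 0.00121), and that between MN1-BEND2 and MN1-CXXC5 0.39 (adjusted p = 0.00625). The uncalled values in MN1-BEND2 and BEND2 cells against control turned to -0.19 and -0.03. ARRDC1-AS1, which shares 29 exon bases with it on the other strand, had a mean of 16.7 CPM in MN1-CXXC5 cells against 21 in control (-0.34, adjusted p = 0.00165) and 21.4 in BEND2 cells.

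ARRDC2, a little-studied member of the family on chromosome 19 (18001132 to 18014102, plus strand), differed between groups at a low level. MN1-BEND2 cells had 11.2 and 13.2 CPM, BEND2 cells 10.1 and 10.9, CTRL 9.16 and 9.24, MN1-CXXC5 cells 8.46 and 9.75, and MN1 cells 7.02 and 7.98. The MN1-BEND2 libraries were the highest and the MN1 libraries the lowest, and the MN1-CXXC5 libraries lay on either side of control. ARRDC2 was called higher in MN1-BEND2 cells against control (0.41, SE 0.111, adjusted p = 0.00806) and against MN1-CXXC5 cells (0.42, SE 0.113, adjusted p = 0.00666). With GC and length offsets the values were 0.14 (adjusted p = 0.343) and -0.16 (adjusted p = 0.269), which ends both calls and turns the second. Without MN1-BEND2 replicate 2 they were 0.28 (adjusted p = 0.111) and 0.30 (adjusted p = 0.0869), and without MN1-CXXC5 replicate 1 the second was 0.33 (adjusted p = 0.0691). DESeq2 also ended both calls (0.40 and 0.40, adjusted p = 0.0895 and 0.0877). Against MN1 cells, ARRDC2 was higher in MN1-BEND2 cells (0.70, SE 0.115, adjusted p = 0.000324), with 0.53 under the offsets (adjusted p = 0.00244). That value ranged from 0.53 to 0.81 over all settings. MN1-CXXC5 against MN1 cells gave 0.28 (adjusted p = 0.0779), and 0.69 with a call under the offsets (adjusted p = 0.000685). The sixth human gene of the family, ARRDC5, had 0 counts in all libraries.

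MLX, the obligate partner of MondoA and ChREBP, was highest in MN1 cells. It lies on chromosome 17 (42567068 to 42573239, plus strand). MN1 cells had 90.8 and 91.4 CPM, MN1-BEND2 cells 67.5 and 68, BEND2 cells 59.8 and 58.6, CTRL 57.3 and 56.9, and MN1-CXXC5 cells 56.3 and 56.5. MLX was thus highest where TXNIP and ARRDC4 were lowest, but the MN1-CXXC5 libraries with their low TXNIP lay just under control. The change in MN1 against control was 0.67, given with no test. MLX was higher in MN1-BEND2 than in BEND2 cells (0.19, SE 0.0341, adjusted p = 0.000654) and than in MN1-CXXC5 cells (0.26, SE 0.0352, adjusted p = 3.98e-05). With GC and length offsets the second value was 0.12 (adjusted p = 0.0174). MN1-CXXC5 against BEND2 cells gave -0.07 with an interval of -0.15 to 0.01, and it was called when scaled by library totals (-0.12, adjusted p = 0.0224). Against control the values were 0.25 in MN1-BEND2 cells (adjusted p = 7.04e-05), or 0.15 with the offsets (adjusted p = 0.00339), -0.02 in MN1-CXXC5 cells (adjusted p = 0.769) and 0.05 in BEND2 cells (adjusted p = 0.378). MLX shares 770 exon bases with PSMC3IP on the other strand. The mean of PSMC3IP was 25.8 CPM in control, 20.7 in MN1, 22.9 in BEND2, 22.8 in MN1-BEND2 and 18.7 in MN1-CXXC5 cells. Like MLX, PSMC3IP was called higher in MN1-BEND2 than in MN1-CXXC5 cells (0.29, adjusted p = 0.0409). Between MN1-BEND2 and BEND2 cells PSMC3IP differed by 0.01 (adjusted p = 0.963). Whether reads of PSMC3IP were counted for MLX was not tested.

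MLXIP, which encodes MondoA, was between 64.4 and 85.2 CPM in all libraries. It lies on chromosome 12 (122078722 to 122147347, plus strand). CTRL had 64.4 and 64.6 CPM, MN1-CXXC5 cells 69.8 and 66.2, BEND2 cells 75.2 and 72.8, MN1 cells 74.8 and 76.7, and MN1-BEND2 cells 85.2 and 85.1. MN1-BEND2 libraries were the highest and CTRL the lowest, and BEND2 and MN1 overlapped. MLXIP rose in MN1-BEND2 cells against control (0.40, SE 0.0374, adjusted p = 2.58e-06) and by 0.20 in BEND2 cells (SE 0.038, adjusted p = 0.0056), with 0.23 in MN1 cells and 0.08 in MN1-CXXC5 cells (adjusted p = 0.14). With GC and length offsets the value in MN1-BEND2 cells was 0.19 (adjusted p = 0.00163), and that in MN1-CXXC5 cells was 0.20 and called (adjusted p = 0.00288). The call in BEND2 cells ended with GC and length offsets (0.11, adjusted p = 0.104), with DESeq2 (0.19, adjusted p = 0.0852) and without BEND2 replicate 1 (0.17). MLXIP also rose in MN1-BEND2 against BEND2 cells by 0.20 (adjusted p = 0.000855) and against MN1-CXXC5 cells by 0.32 (adjusted p = 1.41e-05), and with the offsets these values were 0.08 (adjusted p = 0.134) and -0.00 (adjusted p = 0.984). In MN1-CXXC5 against BEND2 cells MLXIP was called lower (-0.12, SE 0.0388, adjusted p = 0.0215). DESeq2 gave -0.10 there and no call (adjusted p = 0.318). With the offsets that value was 0.08 (adjusted p = 0.158), and the call ended without BEND2 replicate 1 (-0.10, adjusted p = 0.152), MN1-CXXC5 replicate 2 (-0.09, adjusted p = 0.173) or MN1 replicate 1 (-0.10, adjusted p = 0.072).

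MLXIPL, the gene of ChREBP on chromosome 7 (73593194 to 73624543, minus strand), was low in all groups. CTRL had 5.1 and 5.13 CPM, MN1 cells 4.68 and 5.25, MN1-BEND2 cells 5.13 and 5.36, BEND2 cells 6.09 and 6.3, and MN1-CXXC5 cells 4.38 and 3.78, from 66 to 166 counts per library. BEND2 libraries were the highest and MN1-CXXC5 libraries the lowest, while the other 3 groups overlapped. Per kilobase of exon, MLXIP exceeded MLXIPL by 4 to 6.06 times in every library, with the exon length of MLXIP, 13905 bases, taken over all its isoforms, which lowers its value per kilobase. MLXIPL was called lower in MN1-CXXC5 than in BEND2 cells (-0.60, SE 0.129, adjusted p = 0.00255). That value was 0.02 with GC and length offsets (adjusted p = 0.929) and -0.58 with DESeq2 (adjusted p = 0.0747), which both end the call. MLXIPL was called higher in MN1-BEND2 than in MN1-CXXC5 cells (0.36, SE 0.131, adjusted p = 0.0316). With the offsets the sign turned (-0.42, adjusted p = 0.0209), and with DESeq2 the call ended (0.34, adjusted p = 0.324). That call also ended without MN1-BEND2 replicate 1 (0.40, adjusted p = 0.0683) or 2 (0.33, adjusted p = 0.142), without MN1-CXXC5 replicate 2 (0.26, adjusted p = 0.249) and without MN1 replicate 1 (0.33, adjusted p = 0.0534). Its values against control were 0.04 in MN1-BEND2, -0.33 in MN1-CXXC5 and 0.27 in BEND2 cells (adjusted p = 0.832, 0.0718 and 0.171), and with the offsets the first 2 turned, to -0.29 and 0.13. Scaled by library totals, the value in MN1-CXXC5 cells was called (-0.36, adjusted p = 0.0421). In MN1-BEND2 against BEND2 cells it was -0.24 (adjusted p = 0.146), and -0.40 with the offsets (adjusted p = 0.0211).

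**Figure D2:**
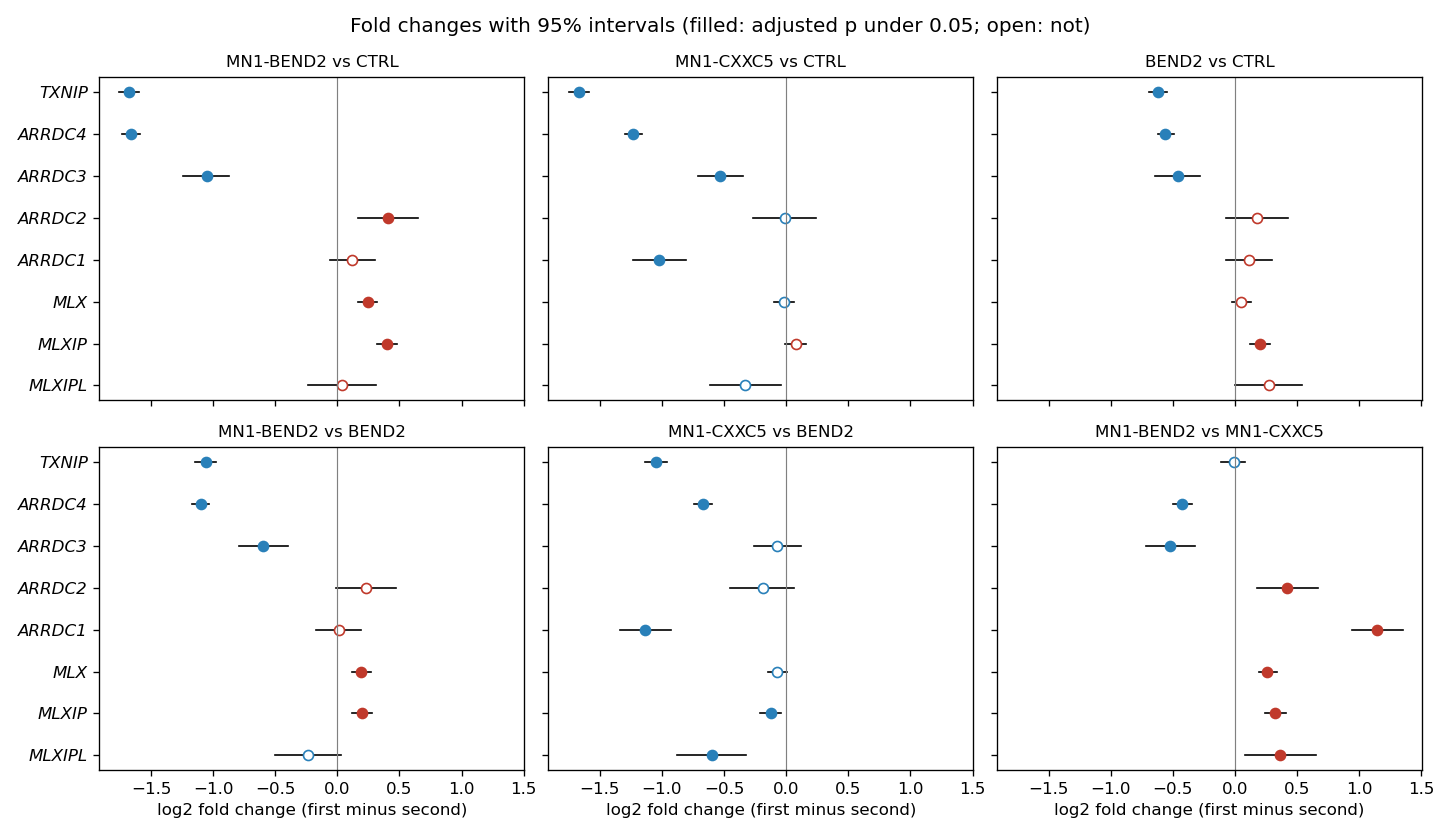
Log2 fold change of each gene (horizontal axes, first group minus second) with its 95% interval in 6 comparisons; filled points have an adjusted p under 0.05, and blue is lower and red higher in the first group. TXNIP and ARRDC4 lie left of 0 in both fusions against CTRL and against BEND2, and between the fusions TXNIP lies at -0.01.

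Counts over the 8 genes are read against the shares of all 18127 tested genes called higher and lower, which were large in most comparisons. In MN1-BEND2 cells against control 3 of the 8 were called higher, beside 26.7% of all genes, and 3 lower, beside 25.2%. MN1-CXXC5 cells had 0 higher (19.2% of all genes) and 4 lower (25.1%), and BEND2 cells had 1 higher (6.71%) and 3 lower (7.46%). MN1 against control had 2 higher (21.6%) and 3 lower (21.4%), from which nothing is read. Against MN1 cells, MN1-BEND2 cells had 4 higher (23.2%) and 2 lower (23.2%), and MN1-CXXC5 cells had 2 higher (23.3%) and 3 lower (25.5%). With GC and length offsets the MN1-CXXC5 counts were 3 higher and 2 lower. Both comparisons use the MN1 libraries that chose TXNIP and ARRDC4. Against BEND2 cells, MN1-BEND2 cells had 2 higher (21.7%) and 3 lower (21.9%). MN1-CXXC5 cells had 0 higher (20.9%) and 5 lower (24.4%) there, and 3 lower with DESeq2 or with GC and length offsets. MN1-BEND2 against MN1-CXXC5 cells had 5 higher (31.1%) and 2 lower (27.5%). With GC and length offsets these were 2 higher and 3 lower, and with DESeq2 3 and 2, so the balance depended on the processing. A call by itself was therefore common. Genes called lower by at least 1 log2 unit were 2.32% of all genes in MN1-BEND2 cells against control, 3.60% in MN1-CXXC5 cells against control, 1.69% in MN1-BEND2 against BEND2 cells and 4.40% in MN1-CXXC5 against BEND2 cells. TXNIP was among them in all 4 of these comparisons and ARRDC4 in 3, ARRDC3 in MN1-BEND2 cells against control, and ARRDC1 in MN1-CXXC5 cells against control and against BEND2. The 2 comparisons against control use the CTRL libraries that chose TXNIP and ARRDC4. The limit of 1 log2 unit was not among the planned tests, and TXNIP lay close to it against BEND2 cells (-1.06 and -1.05). With GC and length offsets ARRDC3 (-0.86) and ARRDC1 (-0.57 against control and -0.54 against BEND2) no longer met the limit in the comparisons named. TXNIP and ARRDC4 did not meet it in BEND2 cells against control (-0.62 and -0.56) or between the fusions (-0.01 and -0.43).

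Called fold changes of ARRDC1, ARRDC2, ARRDC3, MLX, MLXIP and MLXIPL moved by over 1.5 times in some comparisons with the offsets for GC content and exon length, and those of TXNIP and ARRDC4 did not. TXNIP and ARRDC4 exons are 43.9% and 43.4% G and C, while MLXIPL, ARRDC1 and ARRDC2 have 63.5%, 62.8% and 60.2%. With the offsets TXNIP gave -1.61 in MN1-BEND2 and -1.69 in MN1-CXXC5 cells against control, and ARRDC4 gave -1.58 and -1.27. ARRDC3, at 37.6%, gave -0.86 in MN1-BEND2 cells against control (adjusted p = 5.86e-06) and -0.29 in place of -0.52 between the fusions.

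**Figure D3:**
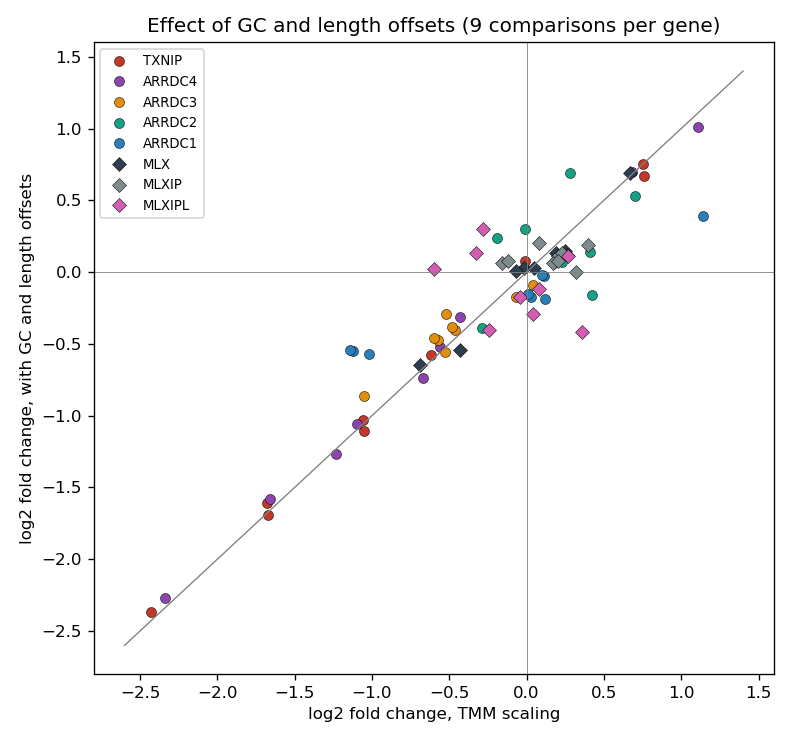
Log2 fold change with GC and length offsets (vertical axis) against that with TMM scaling alone (horizontal axis), 9 comparisons per gene; the line marks equal values. TXNIP and ARRDC4 lie near the line, ARRDC1 moves towards 0 (-1.02 to -0.57 in MN1-CXXC5 cells against control) and some ARRDC2, MLXIP and MLXIPL points change sign.

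Libraries held 15914424 to 26799613 counts, and a floor of 3 counts equals 0.112 to 0.189 CPM. The levels of MN1, BEND2 and CXXC5 went with the labels in all 10 libraries. Of 5 HEK293 markers, VIM and NEFL were abundant in every library, at 349 to 534 and 156 to 551 CPM. PAX2 had 2.95 to 8.61 CPM outside MN1-CXXC5 libraries and 25.2 and 26.1 in them. NEFM had 2.24 to 5.62 CPM and LHX1 0 to 8 counts. The summed level of the 5, mostly VIM and NEFL, was 531 to 1107 CPM, lowest in MN1 and highest in MN1-CXXC5 libraries. Squamous and salivary epithelium markers summed to 88.3 CPM in CTRL replicate 1, 80.9 in MN1 replicate 1 and 0.853 to 2.73 in the other 8 libraries, with 1 of the 10 genes at 0 throughout. TXNIP was at 112 CPM in both CTRL libraries. Leaving out CTRL replicate 1 and MN1 replicate 1 leaves 1 control library. The log2 fold changes of TXNIP were then -1.69 in MN1-BEND2, -1.65 in MN1-CXXC5 and -0.62 in BEND2 cells against control. Blood markers summed to 0.171 to 8.33 CPM, liver markers to 0.156 to 0.513 and fibroblast markers to 4.79 to 12.2. In bulk RNA, fewer cells with a transcript and less of it per cell cannot be told apart.

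Other known target genes of MondoA and ChREBP changed in both directions. Of a list of 20 such genes without the members, 18 were tested. In MN1-BEND2 cells against control 8 were higher and 5 lower (median log2 fold change 0.11, against 0.01 over all genes), where 26.7% of all genes were called higher and 25.2% lower. MN1-CXXC5 had 6 higher and 8 lower (-0.10, against -0.03), beside 19.2% and 25.1% of all genes, and with GC and length offsets 7 and 5 (0.07). BEND2 had 5 higher and 2 lower (0.11, against 0.00), beside 6.71% and 7.46%, and 3 and 0 without the 2 libraries high in squamous transcripts. These shares and medians over all genes hold for the lists that follow in the same 3 comparisons. FASN, fatty acid synthase, rose in MN1-BEND2 cells (479 against 262 CPM, 0.87, adjusted p = 1.06e-09) and in BEND2 cells (0.49, adjusted p = 7.34e-06). HK2, a hexokinase, rose in MN1-BEND2 cells (0.78, adjusted p = 8.65e-09), where RGS16, a regulator of G protein signalling, fell (-1.08, adjusted p = 6.37e-09). KLF10, a zinc-finger repressor, stood at 52.4 CPM in control, 49 in MN1-BEND2, 44.6 in MN1-CXXC5, 44.4 in BEND2 and 15.7 in MN1 cells. PKLR, the liver pyruvate kinase gene, had 0 counts in all libraries.

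The MAX and MLX network, the E-box factors that share partners with MLX, held 9 tested genes. Against control, MN1-BEND2 had 3 of them higher and 2 lower, MN1-CXXC5 3 and 2, and BEND2 1 and 1 (medians -0.13, -0.04 and 0.10). MYC rose in all 3 groups, from 105 CPM in control to 326 in MN1-BEND2 cells (1.64, adjusted p = 5.09e-12), 175 in MN1-CXXC5 cells (0.74, adjusted p = 9.4e-09) and 123 in BEND2 cells (0.23, adjusted p = 0.00103). Its mean in MN1 cells was 91.8 CPM. MXD3, a MYC antagonist, fell in MN1-CXXC5 cells to 2.85 from 5.73 CPM (-1.01, adjusted p = 0.000165).

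Of 18 genes of glucose uptake and phosphorylation, on which TXNIP and ARRDC4 bear, 13 were tested, and against control MN1-BEND2 had 7 higher and 2 lower (median 0.26), MN1-CXXC5 3 and 6 (-0.13), and BEND2 2 and 0 (0.07). In MN1-BEND2 against MN1-CXXC5 cells 10 were higher and 3 lower, with a median of 0.49 against 0.02 over all genes, of which 31.1% were higher and 27.5% lower. With GC and length offsets 6 of the 13 were higher and 3 lower, with a median of 0.11. The neuronal-type transporter gene SLC2A3 (GLUT3) rose in MN1-CXXC5 cells to 72.5 from 34.4 CPM (1.08, adjusted p = 8.93e-09). SLC2A1 (GLUT1), the transporter that TXNIP acts on, was lower in MN1-CXXC5 than in BEND2 cells (48.9 against 73.8 CPM, -0.60, adjusted p = 2.76e-06). HK1 rose in both fusions against control (0.53 and 0.38, adjusted p = 6.8e-08 and 3.08e-06).

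Partners of the arrestin proteins changed in both directions. Of 9 NEDD4 family ligases, 2 were higher and 4 lower in MN1-BEND2 cells against control, and 1 and 3 in MN1-CXXC5 and in BEND2 cells each (medians -0.14, -0.14 and -0.00). SMURF2 rose in all 3 (0.96, 0.56 and 0.29, adjusted p = 4.45e-09, 1.48e-06 and 0.00167) and NEDD4L fell in all 3 (-0.62, -0.15 and -0.21, adjusted p = 6.54e-08, 0.00555 and 0.00334). Of 14 thioredoxin and peroxiredoxin genes, whose system TXNIP inhibits, MN1-BEND2 had 6 higher and 4 lower, MN1-CXXC5 3 and 8, and BEND2 1 and 1 (medians 0.10, -0.15 and 0.08). The 8 that were lower in MN1-CXXC5 cells became 4 with GC and length offsets, and 4 without the 2 libraries high in squamous transcripts. TXNRD1, thioredoxin reductase, rose in MN1-BEND2 cells (0.53, adjusted p = 2.13e-07) and PRDX1, a peroxiredoxin, rose in all 3 groups (0.35, 0.49 and 0.26, adjusted p = 1.65e-05, 2.3e-06 and 0.00211). Of 6 partners of ARRDC1 in vesicle budding, MN1-BEND2 had 1 higher and 2 lower, MN1-CXXC5 1 and 1, and BEND2 0 and 1 (medians -0.01, 0.01 and -0.05). VPS28, a subunit with TSG101 in ESCRT-I, fell in MN1-CXXC5 cells (-0.56, adjusted p = 7e-05). Of the other arrestin-fold genes 7 of 9 were tested, with 3 higher and 1 lower for MN1-BEND2 and 2 and 3 for MN1-CXXC5 (medians 0.19 and -0.15, the second 0.08 with GC and length offsets). In BEND2 cells edgeR called 0 of the 7 (median 0.07), with 2 at an unadjusted p under 0.05, and DESeq2 called 0. VPS26A, a retromer subunit, rose in both fusions (0.80 and 0.26, adjusted p = 8.5e-09 and 0.000182).

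The 2 further lists held genes that respond to signals known to act on TXNIP or its relatives. Of 12 glucocorticoid-responsive genes, MN1-BEND2 had 7 higher and 2 lower against control, MN1-CXXC5 2 and 5, and BEND2 0 and 1 (medians 0.37, -0.32 and 0.05). TSC22D3, which encodes the leucine zipper protein GILZ, fell in all 3, from 1105 CPM in control to 484, 331 and 776 (-1.19, -1.74 and -0.51, adjusted p = 3.74e-11, 8.38e-12 and 2.65e-06), and its mean in MN1 cells was 321 CPM. FKBP5 rose in both fusions (0.66 and 0.25, adjusted p = 6.39e-09 and 4.35e-05). Of 12 FOXO target genes, MN1-BEND2 had 3 higher and 7 lower, MN1-CXXC5 4 and 1 (offsets for GC and length gave 5 and 3), and BEND2 0 and 3 (medians -0.16, 0.02 and -0.00). CITED2 rose in both fusions (1.02 and 0.54, adjusted p = 4.59e-09 and 3.14e-06), and KLHL24 fell in BEND2 cells (-0.35, adjusted p = 0.00235).

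The genes most like TXNIP and ARRDC4 across the 10 libraries, of 1577 compared, are given as a description. Compared were tested genes with a proper symbol and a mean of at least 5 CPM in their highest group. Their group means also had to range over at least 1 log2 unit. CRTAC1 met the limit on level only through CTRL and BEND2 cells (8.83 and 6.58 CPM). The measure was Pearson's r of log2 CPM over n = 10 libraries, which fall into 5 groups of 2, so it mostly reads the order and spacing of 5 group means, and it includes the MN1 and CTRL libraries that chose both genes, so their likeness to each other supports nothing. For TXNIP the 5 were SNHG1, a host gene of small nucleolar RNAs (0.988), ARRDC4 (0.983), CRTAC1 (0.982), CEBPG, a bZIP factor of the amino acid response (0.973), and H1F0, a linker histone (0.963). For ARRDC4 they were CRTAC1 (0.988), TXNIP (0.983), CEBPG (0.976), BHLHE40, an E-box repressor (0.970), and PMAIP1, a pro-apoptotic BCL2-family gene (0.964). All had their highest mean in CTRL and their lowest in MN1. In MN1 cells CRTAC1 stood at 35.6% of its control mean, H1F0 at 32.1% and PMAIP1 at 47.4%. Ranked by Spearman's rho, 0 of the 5 genes named for TXNIP and 2 of the 5 for ARRDC4 were again among the top 5.

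**Figure D4:**
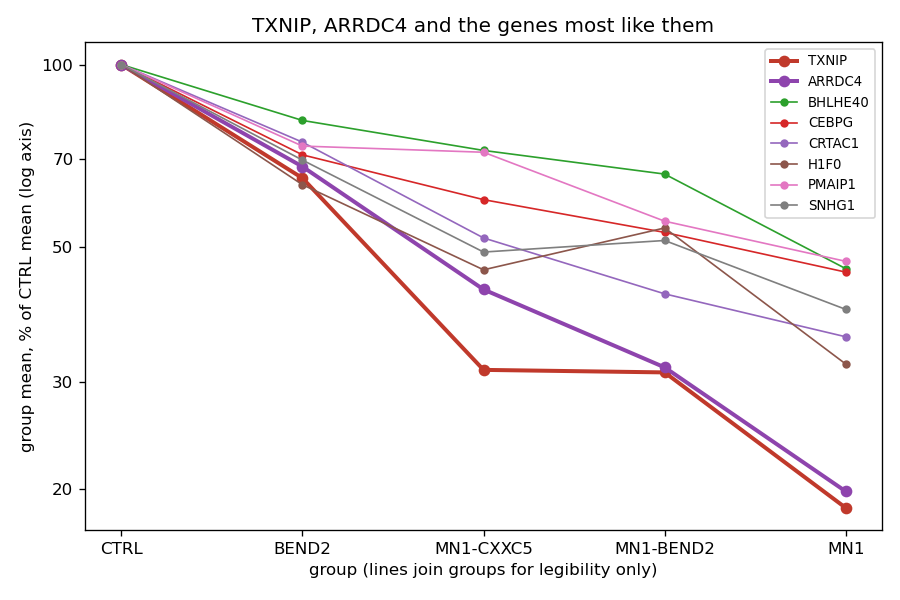
Group mean as a percentage of the CTRL mean (log axis) for TXNIP, ARRDC4 and the genes most like them, with groups in the order of TXNIP from high to low apart from the overlapping fusions; lines join groups for legibility only. In MN1 cells TXNIP and ARRDC4, which were chosen by this value, lie at 18.6% and 19.8%, and the other genes at 32.1% to 47.4%.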

How the data were processed

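The authors deposited one table of raw read counts per gene, in whole numbers; its 10 columns carry the samples' names (0 left over). The tools were HISAT2, featureCounts 2.0.0 and SAMtools 1.0.1 with GRCh38 (hg38), per the submitters' processing notes. Neither the strand setting nor the annotation release is given in the sources used here. The 45 identifiers on 2 lines were summed, and GENCODE v29 supplied positions, exon lengths and GC content. Counts were fitted with edgeR 4.0.16 in R 4.3.3 (TMM, filterByExpr by group, quasi-likelihood F-test, two-sided, 5 residual degrees of freedom, Benjamini-Hochberg over 18127 genes). The fit was tested on simulated data. Levels are CPM with TMM factors. Intervals of fold changes cover 95% and rest on the fit's spread between libraries; floors of 3 counts cover counting error only, since reads with no molecular identifier need not be independent molecules. Alternatives were RLE factors, library totals, DESeq2 1.42.0, no filter, only the groups compared, each library left out, a replicate block, and offsets for GC content and exon length; leaving out both libraries high in squamous transcripts was added after their marker levels were seen. The 8 members, 9 pathway lists and 5 marker lists (137 list genes) were chosen with earlier results of these data known. Named genes were the members, their antisense partners, the 5 genes most like TXNIP and ARRDC4 (log2 CPM, prior count 2), and per list and comparison up to 3 genes with the smallest adjusted p; PSMC3IP, ARRDC5, PKLR and the levels in other groups of list genes were named after their values were seen.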

Additional observations from a re-analysis of the deposited data

How the results depend on the processing

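Over the 72 member values, which include those of MN1 against control, and 19 alternatives, 1365 values were obtained. Of these, 1306 kept their side of the threshold (48 of them, uncalled in both fits, with a change of sign, 29 under the offsets). Another 35 lost the call and 13 gained one, with no change of sign as rounded. The other 11, named reversals, changed sign with a call in at least 1 of the 2 fits. Only MLXIPL in MN1-BEND2 against MN1-CXXC5 cells was called with both signs. Apart from MN1 against control, from which nothing is read, the called changes of TXNIP, ARRDC4, ARRDC3, ARRDC1 and MLX kept their calls under every alternative run. Reversals came with GC and length offsets, without or with the replicate block: MLXIP 0.06 in MN1-CXXC5 against MN1 and 0.08 against BEND2, MLXIPL 0.02 in MN1-CXXC5 against BEND2 and -0.42 in MN1-BEND2 against MN1-CXXC5, ARRDC2 -0.16 in the latter, and, with both together only, ARRDC2 0.30 in MN1-CXXC5 against control. In MN1-CXXC5 against BEND2 cells 3 members in place of 5 were called with DESeq2, with the offsets, and with block and offsets. In MN1-BEND2 against MN1-CXXC5 cells the offsets gave 2 members higher and 3 lower, in place of 5 and 2.

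DESeq2 called fewer genes: 4967 in place of 8033 in MN1-CXXC5 against control, 4862 in place of 7786 in MN1 against control, 5333 in place of 8398 in MN1-BEND2 against MN1, 4819 in place of 7909 in MN1-BEND2 against BEND2, and 5238 in place of 8199 in MN1-CXXC5 against BEND2. BEND2 against control had 2569 genes called, 838 with DESeq2, 1239 without both libraries high in squamous transcripts, 1682 with the offsets and 1064 to 2526 with single libraries left out (1350 and 1244 without CTRL replicates 1 and 2, 1064 and 1200 without BEND2 replicates 1 and 2). Fewer libraries were fitted where some were left out; for DESeq2 and the offsets the cause was not tested. The replicate block raised that count to 4159. Same-numbered libraries deviated together only weakly (correlations 0.066 to 0.29 over group pairs) and the labels do not pair them; with the block, ARRDC2 was called in MN1-CXXC5 against MN1 (0.28, adjusted p = 0.0411), the only tested member call it changed. Depth limits ARRDC1, ARRDC2 and MLXIPL most, at 66 to 439 counts per library.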
